A study of Mus musculus with 6 samples.

Results

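Beta-tubulin is one half-unit of the tubulin dimer that polymerises into microtubules, and mammals make it from a small family of genes with closely similar coding sequences. The 6 beta-tubulin genes described here are Tubb2a, Tubb2b, Tubb2a-ps2, Tubb3, Tubb5 and Tubb6, found by their symbols among the 22602 genes with a listed mRNA level. Tubb5 encodes the broadly expressed class I beta-tubulin, Tubb2a and Tubb2b encode the paired class II isoforms that are abundant in the nervous system, Tubb3 encodes the neuron-enriched class III isoform that is widely used as a neuronal marker, and Tubb6 encodes the class V isoform. Tubb2a-ps2 is annotated by RefSeq as a transcribed pseudogene, a copy of tubulin sequence that is not known to make a protein, and whether its locus is transcribed in these cells was not tested. The family was chosen by the measured RPKM difference of Tubb2a-ps2, which had been called higher in the Sim2 clones. The place of Tubb3 among neural markers was a further ground. The levels and group differences are therefore given as a description with no p-value, and nothing is read from which members were called.

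The 6 libraries were made from cultured mouse embryonic stem (ES) cells. The Sim2 group was 1 culture of each of the clones A6, B8 and C4. In these a mouse Sim2 transgene with a Flag tag, followed by IRES-Venus, sits at the ROSA26 locus under the tetracycline-repressed hCMV*-1 promoter. The EB3 group was 3 libraries (EB3-0, EB3-1 and EB3-2) of the parental line EBRTcH3, which lacks the Sim2-Flag transgene. The study used Venus to check induction in EB3 as well as in the clones. All cells had been without tetracycline for 26 h. The groups thus differ in the Sim2-Flag transgene and also in being derived clones against their parent, and these cannot be told apart. SIM2 is a bHLH-PAS transcription factor encoded on human chromosome 21, and the groups were compared to find transcripts that respond to its expression.

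Sim2 mRNA stood at 196, 212 and 168 RPKM (reads per kilobase of cDNA, scaled to library depth) in A6, B8 and C4 and between 0.0917 and 0.130 RPKM in the EB3 libraries. The 6 pluripotency markers summed to 2906 to 3124 RPKM in the Sim2 clones and 3079 to 3412 RPKM in EB3, and 0 were called by limma (1 at an unadjusted p under 0.05). Markers of fibroblasts, which can accompany ES cells as feeders, summed to at most 0.885 RPKM in any library, with Lum listed at 0 in all 6. The study's methods describe culture on gelatin-coated dishes with leukemia inhibitory factor and name no feeder layer. Depth was 25095861 to 28269340 reads. EB3-0 stood apart from its group, with Pearson's r of 0.980 and 0.981 to EB3-1 and EB3-2 over 11595 genes, against 0.997 between EB3-1 and EB3-2. Reads per gene of EB3-1 and EB3-2 differed by a mean chi-square of 2.78, against 78.4 and 77.8 for EB3-0 with each of them. In the Sim2 group B8 stood apart too, with r of 0.979 to A6 and 0.982 to C4, against 0.993 between A6 and C4. The mean chi-squares were 40.4 and 35.4 for B8 with A6 and C4, and 12.4 for A6 with C4. The study's methods state that the EB3 RNA came from 3 separate, independent cultures. The labels do not say whether EB3-1 and EB3-2 share a later preparation step. Each n = 3, SD and SE for EB3 counts them as separate, and all p-values measure only the spread between these libraries, which may be technical.

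The sequences that matter most for reading the values are those shared between Tubb2b and Tubb2a-ps2, because a read from a shared stretch can be listed under either gene. Tubb2b lies on chr13:34218877-34222223 of mm9, on the minus strand, in 4 exons with a cDNA of 1922 bases. Tubb2a-ps2 is listed at chr12:11889002-11889705, also on the minus strand, as an uninterrupted stretch of 704 bases. Bases 194 to 704 of Tubb2a-ps2 aligned to bases 80 to 589 of the Tubb2b cDNA with 97.3% identity (13 mismatches and 1 gap base). Against the Tubb2a cDNA, 432 of 480 aligned positions were identical, despite the pseudogene's name, and against Tubb3, Tubb5 and Tubb6 it was 78.3%, 79.9% and 78.1%. The Tubb2b stretch that aligned crosses all 3 exon junctions of the mRNA, and Tubb2a-ps2 carries the joined exons with no intron between them. The 60 bases around junction 2, all coding in Tubb2b, are shown 5′ to 3′ for 5 of the genes. Capitals in the Tubb2b line mark the base on each side of the junction, and capitals in the other lines mark bases that differ from Tubb2b.
Tubb2b: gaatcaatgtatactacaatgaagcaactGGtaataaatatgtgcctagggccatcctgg
Tubb2a-ps2: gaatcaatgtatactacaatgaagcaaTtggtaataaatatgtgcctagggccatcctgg
Tubb2a: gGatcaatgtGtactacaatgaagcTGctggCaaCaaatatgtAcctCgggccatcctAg
Tubb3: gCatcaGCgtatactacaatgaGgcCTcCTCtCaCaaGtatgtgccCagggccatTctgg
Tubb5: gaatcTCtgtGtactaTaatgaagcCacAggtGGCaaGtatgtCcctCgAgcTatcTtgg

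In the genome (mm9) these bases of Tubb2b are split between chr13:34221115-34221144 and chr13:34220822-34220851, whereas those of Tubb2a-ps2 are the single block chr12:11889275-11889334. Tubb2a-ps2 differed from Tubb2b at 1 of the 60 bases, Tubb2a at 9, Tubb3 at 14 and Tubb5 at 15. At junctions 1 and 3 the pseudogene also differed from Tubb2b at 1 base each. Tubb2a differed from Tubb2b at 7 bases around junction 1 and at only 2 around junction 3, where all 3 class II sequences are nearly alike.
Junction 1, Tubb2b: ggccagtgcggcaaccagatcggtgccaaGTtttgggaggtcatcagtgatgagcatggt
Junction 1, Tubb2a-ps2: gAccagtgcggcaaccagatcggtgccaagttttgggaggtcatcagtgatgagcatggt
Junction 1, Tubb2a: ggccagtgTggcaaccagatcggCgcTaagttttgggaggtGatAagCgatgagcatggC
Junction 3, Tubb2b: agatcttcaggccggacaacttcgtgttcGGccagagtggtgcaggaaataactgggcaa
Junction 3, Tubb2a-ps2: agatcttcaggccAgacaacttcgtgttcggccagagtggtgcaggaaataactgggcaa
Junction 3, Tubb2a: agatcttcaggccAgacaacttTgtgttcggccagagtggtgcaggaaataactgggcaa

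The reads were up to 100 bases long, so every 100-base window of each cDNA was compared, without gaps, with the other genes. Of the 605 windows of Tubb2a-ps2, 340 (56.2%) were within 5 mismatches of Tubb2b, 244 within 2 and 35 identical to it. Only 5 windows were within 5 mismatches of Tubb2a, and 0 of Tubb3, Tubb5 or Tubb6. Of the 1823 windows of the Tubb2b cDNA, 297 (16.3%) cross an exon junction, and all 297 were within 5 mismatches of Tubb2a-ps2 (222 within 2). Another 43 Tubb2b windows within an exon were also within 5 mismatches of it. Reads had been placed with BWA, a genome aligner that does not split a read across an intron, and how reads of an exon junction or with several good positions were treated is not given in the sources used here. No alignments of single reads were used, so whether Tubb2b reads were listed under Tubb2a-ps2 was not tested, and the values of these 2 genes are uncertain for this reason.

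**Figure D1:**
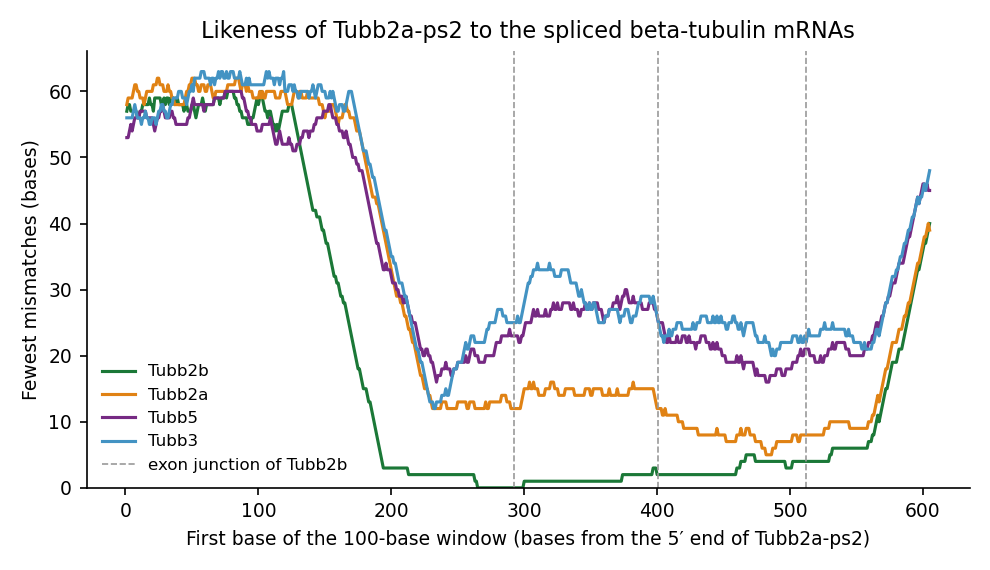
Fewest mismatches (y axis, bases, gaps not allowed) between each 100-base window of Tubb2a-ps2 (x axis, first base of the window counted from the 5′ end) and the spliced cDNAs of Tubb2b, Tubb2a, Tubb5 and Tubb3. Dashed lines mark the Tubb2b exon junctions, which lie after bases 292, 401 and 512 of Tubb2a-ps2. A window crosses a junction where it holds bases on both sides of that junction, so its first base lies at or to the left of a line. Tubb2b is the closest gene through the middle of the copy, at 0 to 6 mismatches, and all 4 lines rise at the left end, where Tubb2a-ps2 does not align to tubulin, and at the right end, where the alignment holds a gap.

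Tubb2a and Tubb2b share more still. Tubb2a lies beside Tubb2b, at chr13:34166147-34169877 on the same strand, 49000 bases away. Their coding sequences of 1338 bases were 96.5% identical (47 mismatches), whereas the other pairs of the 5 protein-coding members were 80.2% to 85.9% identical. Of 1485 windows of Tubb2a, 543 had an identical match in Tubb2b and 996 (67.1%) were within 5 mismatches. Tubb3 (chr8:125935464-125945910, plus strand) had 93 windows within 5 mismatches of Tubb2a, 40 of Tubb6 and 35 of Tubb2b, but 0 identical to any of them. Tubb5 (chr17:35970865-35975246, minus strand) had 5 windows of 2545 within 5 mismatches of Tubb2a. Tubb6 lies at chr18:67550385-67562403 on the plus strand.

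Tubb5 was by far the most abundant member. Its mRNA was at 1590, 1461 and 1567 RPKM in A6, B8 and C4 and at 1775, 1458 and 1457 RPKM in EB3-0, EB3-1 and EB3-2. The groups overlapped, and the highest value was that of EB3-0. Mean levels were 1539 ± 69.3 RPKM (SD, n = 3) in the Sim2 clones and 1563 ± 183 RPKM (SD, n = 3) in EB3, a log2 difference of -0.02 ± 0.13 (SE) for Sim2 minus EB3 on the log2(RPKM + 0.5) scale. Tubb5 ranked 12 among the 22602 genes by mean RPKM, and its value rested on at least 99536 reads per library. Without EB3-0 its log2 difference was 0.08 ± 0.06 (SE), and the sign also turned without B8 and after quantile normalization, so the data give no direction for Tubb5.

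Tubb2b, the second most abundant member, was higher in every clone than in every EB3 library. It was at 383, 434 and 384 RPKM in A6, B8 and C4 and at 328, 276 and 276 RPKM in EB3-0, EB3-1 and EB3-2. The 3 Sim2 values lay above the 3 EB3 values, with B8 the highest of all and EB3-0 the nearest to the clones. Means were 400 ± 29.2 RPKM and 293 ± 29.9 RPKM (SD, n = 3 each), a log2 difference of 0.45 ± 0.11 (SE). Without EB3-0 it was 0.53 ± 0.07 (SE).

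Tubb2a-ps2 followed Tubb2b closely. It was listed at 370, 397 and 364 RPKM in A6, B8 and C4 and at 269, 251 and 251 RPKM in EB3-0, EB3-1 and EB3-2. The groups did not overlap, B8 was again the highest library, and the SD within groups on the log2 scale, 0.06, was the smallest of the 6 members (0.12 to 0.19 for the others). Means were 377 ± 17.6 RPKM and 257 ± 10.8 RPKM (SD, n = 3 each), 1.47 times higher in the Sim2 clones, a log2 difference of 0.55 ± 0.09 (SE). Its reads numbered 4605 to 7244 per library, for which counting alone gives a relative error of 1.17% to 1.47%, and both mates of a pair may be counted.

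The level of Tubb2a-ps2 divided by that of Tubb2b was 0.966, 0.915 and 0.947 in the clones and 0.823, 0.911 and 0.908 in the EB3 libraries, so the 2 genes kept nearly 1 ratio while both differed between the groups. The clones lay above EB3 in this ratio as well, though B8 and EB3-1 nearly met. Tubb2a-ps2 took 25.1% to 26.1% of the reads listed under the 2 genes together in the clones and 23.2% to 25.0% in EB3. For comparison, 16.3% of Tubb2b windows cross a junction and 18.7% are within 5 mismatches of Tubb2a-ps2. These window shares weigh every position equally, allow no gaps and cover only the listed stretch of Tubb2a-ps2. They are therefore not an expected share of reads, and the source of the reads was not tested. Over the 6 libraries, Pearson's r of log2(RPKM + 0.5) was 0.969 between Tubb2a-ps2 and Tubb2b, and 0.833 between Tubb2a-ps2 and Tubb2a. These 6 points form 2 groups, and the coefficients describe them only.

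**Figure D2:**
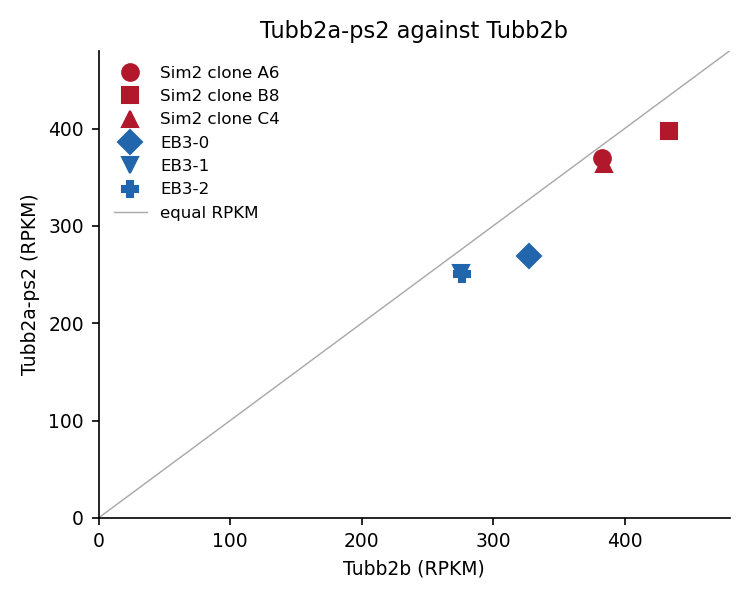
Listed level of Tubb2a-ps2 (y axis, RPKM) against that of Tubb2b (x axis, RPKM) in each of the 6 libraries, both axes starting at 0, with the line of equal RPKM. Sim2 clones are in red and EB3 libraries in blue. The 3 clones sit at 364 to 397 RPKM of Tubb2a-ps2, above the 3 EB3 libraries at 251 to 269 RPKM, and all 6 points lie just under the line.

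Tubb2a, the gene after which the pseudogene is named, was the least abundant member. It was at 29.9, 33.2 and 25.5 RPKM in A6, B8 and C4 and at 27.0, 22.5 and 21.9 RPKM in EB3-0, EB3-1 and EB3-2. The groups overlapped, since EB3-0 lay above C4. Means were 29.5 ± 3.87 RPKM and 23.8 ± 2.83 RPKM (SD, n = 3 each), a log2 difference of 0.30 ± 0.13 (SE). Tubb2a-ps2 exceeded Tubb2a by 9.97 to 14.3 times in RPKM. Tubb2a stood at 0.0664 to 0.0825 of the Tubb2b level, and with 917 to 1376 reads it was the least deeply covered member. Because 543 of its 1485 windows are identical in Tubb2b, its level depends on how such reads were assigned.

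Pooling the reads and lengths of Tubb2a, Tubb2b and Tubb2a-ps2 gives a class II level that does not depend on how the listed reads were divided among them. It was 247, 276 and 245 RPKM in A6, B8 and C4 and 204, 175 and 175 RPKM in EB3-0, EB3-1 and EB3-2. The clones lay above all EB3 libraries. The log2 difference was 0.47 ± 0.09 (SE from the pooled values alone, whereas the members' SE came from limma). The pooled difference thus lay between those of Tubb2a and Tubb2a-ps2 and close to that of Tubb2b, which supplied most of the reads.

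Tubb3 went the other way. Its mRNA was at 95.0, 70.4 and 78.3 RPKM in A6, B8 and C4 and at 133, 122 and 113 RPKM in EB3-0, EB3-1 and EB3-2. All 3 clones lay under all 3 EB3 libraries, with B8 the lowest, the same clone that was highest for Tubb2b and Tubb2a-ps2. Means were 81.2 ± 12.6 RPKM and 123 ± 10.1 RPKM (SD, n = 3 each), a log2 difference of -0.60 ± 0.12 (SE), and -0.54 ± 0.13 (SE) without EB3-0. The ratio of Tubb2a-ps2 to Tubb3 was 3.90 to 5.64 in the clones and 2.02 to 2.22 in EB3, a description of 2 genes chosen in part for their levels.

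Tubb6 was at 78.8, 65.9 and 74.6 RPKM in A6, B8 and C4 and at 81.8, 60.9 and 64.1 RPKM in EB3-0, EB3-1 and EB3-2. The groups overlapped fully, since EB3-0 was the highest and EB3-1 the lowest. Means were 73.1 ± 6.58 RPKM and 68.9 ± 11.3 RPKM (SD, n = 3 each), a log2 difference of 0.09 ± 0.13 (SE). Without EB3-0 it was 0.22 ± 0.09 (SE). Its closest member in pattern was Tubb5 (r = 0.907 over 6 libraries), and both were highest in EB3-0, at 1.31 and 1.22 times the mean of EB3-1 and EB3-2.

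**Figure D3:**
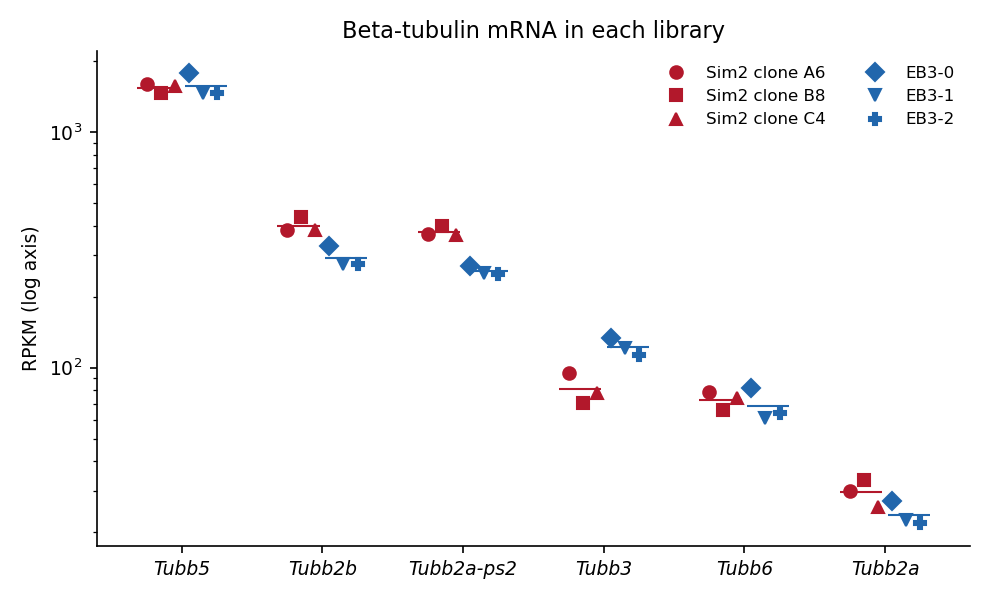
Level of each member (y axis, RPKM, log axis) in the 3 Sim2 clones (red) and the 3 EB3 libraries (blue), with genes in order of abundance and short lines at the group means. The clones lie above EB3 for Tubb2b and Tubb2a-ps2 and under EB3 for Tubb3, and the groups overlap for Tubb5, Tubb6 and Tubb2a.

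Per length of cDNA, the order Tubb5, Tubb2b, Tubb2a-ps2, Tubb3, Tubb6, Tubb2a held in 6 of 6 libraries. Over the libraries, the ranges of Tubb2b and Tubb2a-ps2 overlapped (mean of the 6 per-library ratios 1.10), as did those of Tubb3 and Tubb6 (1.45). The other neighbours in the order were separated, with a mean per-library ratio of 4.597 for Tubb5 over Tubb2b, 3.42 for Tubb2a-ps2 over Tubb3 and 2.70 for Tubb6 over Tubb2a. In shares of the summed RPKM of all listed beta-tubulin genes, Tubb5 held 46.6% to 50.9%, Tubb2b 9.40% to 13.9%, Tubb2a-ps2 7.73% to 12.7%, Tubb3 2.25% to 4.21%, Tubb6 2.10% to 2.35% and Tubb2a 0.761% to 1.06%. Nearly all the rest was Tubb2c, now called Tubb4b, at 21.4% to 25.0%. The summed level ran from 3131 to 3352 RPKM over the Sim2 libraries and 2872 to 3485 RPKM over EB3. It overlapped between the groups, and EB3-0 was the highest.

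Of the 6 members, which all passed the filter of a mean RPKM of at least 1, Tubb2a-ps2 was the only one called by limma (Benjamini-Hochberg adjusted p under 0.05 over all tested genes). Over all 11595 tested genes, 81 (0.699%) were called, 40 higher and 41 lower (0.345% and 0.354%). After a trend with GC content and cDNA length was removed from each library, 110 genes were called higher and 73 lower. In 3 of 6 members the groups did not overlap, 2 higher and 1 lower, against 26.1% of all tested genes (12.7% higher and 13.4% lower). At an unadjusted p under 0.05 stood 17.8% of all tested genes. The members were chosen with this contrast known, so nothing is read from these counts. The call of Tubb2a-ps2 was lost when any library other than EB3-0 was left out. Without EB3-0, 2 members were called, Tubb2a-ps2 and Tubb2b, in a fit that called 692 of 11599 tested genes.

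The nearest tested gene on each side of each member was also examined. Smc6, a subunit of the SMC5/6 complex, is the nearest tested gene to Tubb2a-ps2 on the side of lower coordinates, 562411 bases away, and its log2 difference was -0.11. Fam49a, the nearest on the other side at 379240 bases, gave -0.08. Psmg4, a proteasome assembly chaperone on the far side of Tubb2b from Tubb2a, gave -0.14, and Bphl, a hydrolase gene that ends 204 bases from Tubb2a, gave -0.42. Beside Tubb3, Tcf25 gave 0.18 and Def8 gave 0.11. Beside Tubb5, Flot1 (flotillin) gave 0.16 and Mdc1, a DNA damage response mediator, 0.17, and beside Tubb6, Impa2 gave -0.07 and Afg3l2 -0.04. None of these neighbours was called by limma (smallest adjusted p = 0.303, for Tcf25). No listed gene overlapped a member.

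The other genes of the tubulin pathway were counted from lists of beta, alpha, gamma and related tubulins, chaperones that fold tubulin, enzymes that modify it or act in the decay of its mRNA, and proteins that bind microtubules. Of 89 listed genes 77 were tested, and limma called 0 higher and 1 lower, with 10 at an unadjusted p under 0.05. The median log2 difference was 0.00, against -0.01 over all tested genes, and in 20 of the 77 the groups did not overlap. Over all tested genes, 26.1% had groups that did not overlap and 17.8% had an unadjusted p under 0.05, so nothing is read from these counts. The called gene was Vbp1, a subunit of prefoldin, the complex that hands unfolded tubulin and actin to the chaperonin CCT. Vbp1 was at 48.4, 46.0 and 45.2 RPKM in A6, B8 and C4 and at 71.4, 88.7 and 83.4 RPKM in EB3-0, EB3-1 and EB3-2. It fell by 0.79 ± 0.10 (SE) on the log2 scale (limma, adjusted p = 0.0216). An intronless copy of the Vbp1 cDNA with 90.2% identity lies within the listed gene Cpeb4 on chromosome 11, and reads shared with it were not examined. The call was lost when any library other than EB3-0 was left out, and when the GC content and length trend was removed.

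Among other beta-tubulins, Tubb2c was at 669 to 804 RPKM in Sim2 libraries and 689 to 870 RPKM in EB3, and its log2 difference was 0.00 ± 0.14 (SE). Tubb4, now called Tubb4a and known from the nervous system, was near 1 RPKM in all libraries, with a log2 difference of -0.13 ± 0.17 (SE), and Tubb1, the isoform of platelets, was at 0.104 RPKM or less. Of the alpha-tubulins, the partners of beta-tubulin in the dimer, 5 of 8 were tested and limma called 0 (0 at an unadjusted p under 0.05), with a median log2 difference of 0.11. Tuba1b was the most abundant, at 822 ± 141 and 807 ± 130 RPKM (Sim2 and EB3, SD, n = 3 each), followed by Tuba4a at 247 ± 20.1 and 220 ± 30.03 RPKM and Tuba1a at 203 ± 4.52 and 188 ± 12.4 RPKM. The alpha-tubulin genes are also close copies of each other, so the division of reads among them is uncertain too.

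Of 12 genes for gamma, delta and epsilon tubulin and for nucleation of microtubules, 11 were tested and limma called 0 (2 at an unadjusted p under 0.05), with a median log2 difference of 0.15. The 3 most abundant were Tubg1 (gamma-tubulin) at 40.6 ± 3.50 and 36.9 ± 7.92 RPKM, and Mzt2 and Mzt1, small subunits of the gamma-tubulin complex, at 39.7 ± 6.33 and 36.6 ± 6.55 RPKM and at 35.8 ± 6.50 and 30.8 ± 4.88 RPKM (Sim2 and EB3, SD, n = 3 each). Of 22 folding genes 21 were tested, with Vbp1 the only call (3 at an unadjusted p under 0.05) and a median log2 difference of -0.11. The CCT chaperonin subunits Cct5, Cct6a and Cct3 led this list in level. Cct5 was at 588 ± 19.3 and 672 ± 78.5 RPKM, Cct6a at 446 ± 23.5 and 531 ± 36.1 RPKM and Cct3 at 356 ± 5.06 and 382 ± 60.1 RPKM (Sim2 and EB3, SD, n = 3 each).

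Of 16 genes of tubulin modification and mRNA decay, 14 were tested and limma called 0 (2 at an unadjusted p under 0.05), with a median of 0.04. The decay factor Ttc5, which binds nascent tubulin when free tubulin is in excess, was at 9.85 ± 1.28 RPKM in the Sim2 group and 10.7 ± 1.01 RPKM in EB3. Ttll12, Hdac6 (a tubulin deacetylase) and Ccdc23 (a cofactor of tubulin carboxypeptidases) were the most abundant of this list, with log2 differences of 0.39 ± 0.11, 0.19 ± 0.08 and -0.07 ± 0.12 (SE). Of 28 microtubule-binding genes 24 were tested and limma called 0 (3 at an unadjusted p under 0.05), with a median of -0.03. The most abundant were Stmn2 and Stmn1, which bind free tubulin dimers, and the spindle factor Tpx2. Their log2 differences were -0.24 ± 0.12, -0.14 ± 0.10 and -0.03 ± 0.08 (SE). Without EB3-0, 3 of the 77 tested genes of all these lists were called, Vbp1 and Spast (a severing enzyme) lower and Ttll12 higher. That fit called 692 of 11599 tested genes over all.

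**Figure D4:**
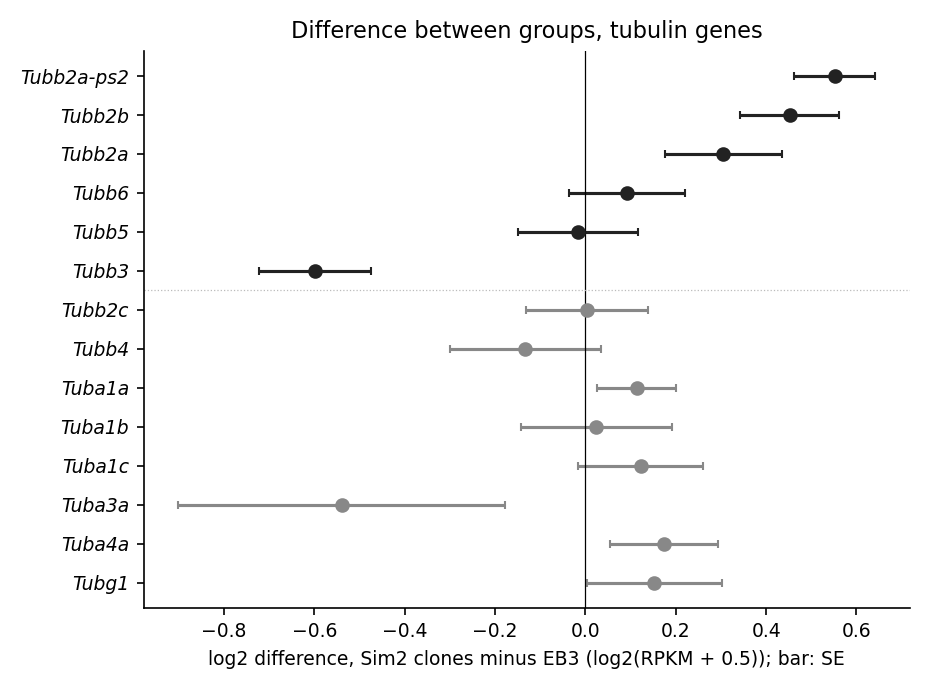
Log2 difference of Sim2 clones minus EB3 (x axis, on the log2(RPKM + 0.5) scale, bars are the SE from limma) for the 6 members (black) and 8 other tubulin genes (grey). Tubb2a-ps2 at 0.55 and Tubb2b at 0.45 lie to the right, Tubb3 at -0.60 and Tuba3a at -0.54 to the left, and Tuba3a has the widest bar.

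Because Tubb3 is a neural marker, 19 other neural markers were counted. Of these 11 were tested, and limma called 0 (2 at an unadjusted p under 0.05), with a median log2 difference of -0.06 and 3 whose groups did not overlap. The shares over all tested genes were 17.8% at an unadjusted p under 0.05 and 26.1% with groups that did not overlap. The list summed to 330 to 395 RPKM in A6, B8 and C4 and 420 to 445 RPKM in EB3, most of it from Stmn2, at 289 ± 41.6 and 339 ± 21.7 RPKM (SD, n = 3 each). Gap43, a growth cone protein, was at 23.7 ± 8.46 and 24.1 ± 1.88 RPKM. Nefl, the light neurofilament subunit, was at 17.2, 15.7 and 20.6 RPKM in A6, B8 and C4 and at 23.2, 30.1 and 30.3 RPKM in EB3, with a log2 difference of -0.63 ± 0.14 (SE, limma, adjusted p = 0.0900). Nes, the intermediate filament protein nestin of neural progenitors, was named after its values were seen. It was at 8.30, 9.06 and 9.15 RPKM in A6, B8 and C4 and at 5.75, 6.01 and 6.03 RPKM in EB3, with a log2 difference of 0.54 ± 0.11 (SE, limma, adjusted p = 0.0787). Without EB3-0 both were called, Nes higher and Nefl lower, in a fit that called 692 of 11599 tested genes. In bulk RNA, fewer cells of a type and less RNA per cell cannot be told apart, and this holds for Tubb3 as well.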

How the data were processed

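mRNA of 6 mouse ES cell libraries (TruSeq library kit, paired reads) was compared between 3 Sim2 clones and 3 EB3 libraries, grouped by the sample labels. The authors mapped reads to mm9 with BWA at default settings, counted exon coverage per gene with their own pipeline, and deposited RPKM values for 22602 genes, with 0 columns of per-sample values unused here. Versions, strand use and the treatment of reads with several positions are not given in the sources used here. Since 100% of values were whole multiples of a step per library (tolerance 0.01), reads per gene were recovered and used as a description.

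The scale was log2(RPKM + 0.5). The 11595 genes (51.3%) averaging 1 RPKM or more were tested with limma 3.58.1 in R 4.3.3 (lmFit, eBayes with trend, no covariate), and an adjusted p under 0.05 (Benjamini-Hochberg) was a call. The script was tested on simulated data. Recovered reads and intervals cover counting error only. GC content, taken from protein-coding transcripts, was available for 96.1% of tested genes. The other genes had a length trend alone removed in that setting.

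Sequences came from an mm9 (NCBIM37) genome and annotation, whose positions overlapped those listed for 99.0% of 21655 symbols, and were compared with Biopython 1.88 and blastn 2.17.0. Genomic copies needed at least 90% identity over 100 bases. Older symbols were matched through a RefSeq gene table. The members and lists were chosen with earlier results of these data known. Genes named are the members, Sim2, every called gene of the lists, the 3 most abundant of each tubulin and neural list, the 3 genes most alike each member (1 of them is not reported here), and the nearest tested gene on each side. Ttc5, Spast, Nes and the alpha, beta and marker genes outside this rule were picked afterwards. Alternatives were other pseudocounts, filters, scalings, a trend with GC content and length removed, EB3-1 and EB3-2 averaged, pooled class II reads, and each library left out.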

Additional observations from a re-analysis of the deposited data

How the results depend on the processing

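Member differences were recomputed 91 times under alternatives, some of which (other low-value filters and eBayes without a trend) cannot change a gene's difference. Of the 91 values, 89 moved by less than 1 SD of the libraries within groups. The exceptions were Tubb2a-ps2 at 0.67 in the setting with the GC content and length trend removed and at 0.47 with class II reads pooled. GC content was taken from protein-coding transcripts, so for Tubb2a-ps2, a pseudogene, that setting removed a length trend alone. The sign changed for Tubb5 alone, whose difference ranged from -0.06 to 0.08 and was above 0 without EB3-0, without B8 and after quantile normalization. The counts of calls were less stable, and the cause was not tested. The number of members called was 1 in the reported fit, 0 without a filter, 0 without a trend in eBayes, 0 after median centring, 0 with EB3-1 and EB3-2 averaged, 2 after quantile normalization and 3 with GC content and length removed, where Tubb2b and Tubb3 joined Tubb2a-ps2. Leaving out 1 library gave 0 to 2. Over all genes 81 were called, against 28 without a filter, 30 without a trend, 6 with EB3-1 and EB3-2 averaged and 183 with GC content and length removed. Leaving out 1 library gave 6 (EB3-1 or EB3-2) to 692 (EB3-0), with 20, 17 and 7 without A6, B8 and C4. The 1 called tubulin pathway gene became 0 without a trend, with EB3-1 and EB3-2 averaged and with GC content and length removed, and 0 to 3 on leaving out 1 library. Neural markers called went from 0 to between 0 and 2 on leaving out 1 library. No paired analysis was possible, because neither the labels nor the study's methods pair a clone with an EB3 culture. The fewest reads behind a member's value were 917.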

Other observations

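The genome holds further copies of these mRNAs in mm9. The Tubb2b-like sequence on chromosome 12 runs on beyond the listed end of Tubb2a-ps2. It covers chr12:11887667-11889512, 97.4% identical to the Tubb2b cDNA over 1849 aligned bases, so the listed 704 bases hold only its 5′ part. A second intronless copy lies at chr13:63068224-63070025, 92.9% identical to the Tubb2b cDNA, and no gene of the deposited table is listed there. An intronless copy of the Tubb3 cDNA, 95.0% identical, lies at chr6:136348448-136350157, also with no listed gene. For Tubb6 0 copies were found at 90% identity. The 3′ part of the Tubb5 cDNA gave 58 short matches, 0 of which crossed an exon junction. Reads at these places were not analysed here.

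The genes whose levels were most like each member over the 6 libraries (Pearson's r of log2(RPKM + 0.5), picked as the highest among 11595 genes) are given as a description. For Tubb2a-ps2 they included Bag6 and Itm2b (r = 0.999 and 0.997), and for Tubb2b they were Ano8, AI848285 and E130309D14Rik (r = 0.997, 0.996 and 0.995). Bag6, a chaperone of newly made membrane proteins, was at 90.5, 94.4 and 89.8 RPKM in A6, B8 and C4 and at 73.1, 71.3 and 71.0 RPKM in EB3-0, EB3-1 and EB3-2, so its groups did not overlap either. For Tubb2a they were Elf3, Spint1 and Ppp2r5d (r = 0.999, 0.995 and 0.995). Elf3 and Spint1 are epithelial genes, and Elf3 was at 30.6, 39.99 and 21.6 RPKM in the clones and 24.1, 15.2 and 13.9 RPKM in EB3, with B8 highest as for Tubb2a. For Tubb3 they were Pcca, Eif2s2 and Sohlh2 (r = 0.996, 0.994 and 0.993). Sohlh2, a germ cell transcription factor, was at 3.94, 1.34 and 2.31 RPKM in the clones and 9.02, 6.47 and 5.96 RPKM in EB3. For Tubb5 they were Ndufv3, Ier2 and Fkbp8 (r = 0.998, 0.997 and 0.996), and for Tubb6 they were Wrap53, Abcf2 and Mcm3 (r = 0.998, 0.994 and 0.990), all 6 of them highest in EB3-0.

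Lineage markers other than neural ones were low. Of 6 primitive endoderm markers 1 was tested, and the list summed to 3.74 to 4.46 RPKM in the clones and 2.46 to 2.75 RPKM in EB3. Of 6 mesoderm and trophoblast markers 1 was tested, with sums of 2.52 to 3.16 and 2.06 to 2.99 RPKM. Limma called 0 in both lists (1 and 0 at an unadjusted p under 0.05).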
